A study of Mus musculus with 36 samples.

Results

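Collagens are secreted or membrane-bound proteins in which alpha chains, each the product of its own gene, wind into a helix. The collagen chain genes were taken as every gene symbol that starts with COL, a number, A and a number in the deposited liver RNA-seq table, in which symbols are written in capitals. This pattern matched 44 of 18591 genes. One match, Col4a3bp, encodes a ceramide transporter and no collagen, so 43 collagen chains remained: 11 of fibrillar collagens, 8 of basement membranes and 24 others. The 24 others were 9 chains of fibril-associated collagens (FACITs), 6 of the beaded filaments of type VI collagen, 4 transmembrane chains, 2 network-forming chains, 1 of anchoring fibrils and 2 further chains.

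The livers came from C57BL/6 mice that drank doxycycline at 50 mg/L, in 4 groups of 3 libraries: Tet1 KO YAP transgenic mice treated with decitabine, Tet1 KO YAP transgenic mice without it (Tet1 KO YAP Tg), YAP transgenic mice (YAP Tg), and wild type mice (Control). YAP, held back by the Hippo pathway, switches on genes together with TEAD factors. TET1 takes part in DNA demethylation by oxidising methylated cytosine. Decitabine, a nucleoside drug, lowers DNA methylation by trapping the methyltransferases. Decitabine was given by daily injection at 0.5 mg/kg for 10 days to mice of 1 month, and all 4 groups received doxycycline. The labels name neither the promoter that drives the transgene, nor the species of YAP, nor the deleted part of Tet1, nor whether libraries within a group are from different mice. No group had the Tet1 deletion without the transgene, and no other group received decitabine. The comparisons ask how the transgene changes liver transcripts, what the Tet1 deletion does to that, and what decitabine does in its place.

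In the liver, fibrillar collagens of types I and III form the scar of fibrosis and are mainly made by stellate cells, the vitamin A storing cells that become myofibroblasts after injury. Basement membrane collagens line vessels and bile ducts, and Col18a1, which also gives rise to endostatin, is made by hepatocytes. Type VI filaments and FACITs such as Col12a1 and Col14a1 attach to fibrils and tune how they pack.

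The 12 libraries held between 19082417 and 31724738 reads. Levels are normalised reads, the deposited scale of reads adjusted for library size. Decitabine libraries are deposited as TPM, reads divided by gene length and scaled to a fixed total, and were brought to the scale of the others. These 3 libraries differ from the rest in unit as well as in treatment, and the labels give no age for the rest. An effect of decitabine thus cannot be told apart from one of processing or of age. The spread between libraries of a group differed widely: beyond sampling noise, pairs of libraries varied with a coefficient of variation of 0.0160 to 0.0428 in YAP Tg, 0.0268 to 0.0332 in Tet1 KO YAP Tg and 0.184 to 0.313 with decitabine. Control libraries 1 and 3 differed by 0.0264 and each differed from library 2 by 0.129 to 0.138. Rn45s, the ribosomal RNA precursor, was at 91374 and 76219 normalised reads in Control libraries 1 and 3, 1654 in Control library 2 and 1057 to 5716 in the libraries of the other groups, and its part in the comparisons with Control was not tested. Libraries as close as those of YAP Tg may be technical repeats, so that p-values measure only the spread between these libraries, and each count of called chains is also given with libraries closer than 0.05 added together. Reads of Tet1 averaged 2.28 ± 1.07 with decitabine, 0.931 ± 0.333 in Tet1 KO YAP Tg, 9.15 ± 0.673 in YAP Tg and 0.682 ± 0.296 in Control (SD, n = 3). Tet1 KO YAP Tg thus lay far below YAP Tg and overlapped Control. These reads are summed over the gene and do not show the deletion, and whether the deletion itself lowered them was not tested.

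Of the 43 chains, 20 had a mean of at least 5 normalised reads in some group, 23 stayed below 5 in all groups and 17 of these below 1. A filter of 0.5 normalised reads in 3 libraries left 30 chains for comparisons without decitabine. It left 28 for those with decitabine, for which the reads of Col4a2, Col4a4 and Col7a1 were not certain. Fold changes are log2(value + 0.5) differences with their standard error, tested with limma in 1 fit over all genes, and a chain is called at an adjusted p below 0.05. A chain that passed the filter only because it was high in 1 group had to differ, so the counts below describe the chains that passed and not all 43. Col6a6 reached 0.5 in Control libraries alone and Col17a1 in YAP Tg libraries alone. Col6a6 is counted as lower in every comparison with Control, a direction set by the filter.

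In YAP Tg against Control, 12 of the 30 chains were higher and 11 were lower, where 70.5% of all 13730 genes tested were called, 36.1% of them higher and 34.5% lower. The median log2 fold change was 0.055 over the chains and 0.0099 over all genes. By class, 4 of 9 fibrillar chains were higher and 2 lower, 3 of 7 basement membrane chains were higher and 2 lower, and 5 of the 14 others were higher and 7 lower. With near-identical libraries added together, which leaves 1 YAP Tg library, 1 Tet1 KO YAP Tg library and 2 Control libraries, the lone libraries are assumed to vary like the others: the spread in all comparisons comes from the 2 Control and the 3 decitabine libraries. Such calls compare lone libraries and are no replicate check of YAP Tg or Tet1 KO YAP Tg. Then 5 chains were called higher (Col4a3, Col12a1, Col4a5, Col4a4 and Col23a1) and 3 lower (Col27a1, Col15a1 and Col5a3), with 19.2% of all genes called.

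In Tet1 KO YAP Tg over YAP Tg, 11 of 30 chains were higher and 5 lower, where 67.4% of all genes were called (33.4% higher, 34.0% lower). Among these were 3 fibrillar chains higher and 1 lower of 9, 1 basement membrane chain higher and 1 lower of 7, and 7 other chains higher and 3 lower of 14. The median log2 fold change was 0.17 over the chains and 0.0042 over all genes. With near-identical libraries added together, 1 library stands against 1, and Col27a1 and Col15a1 were called higher and Col4a5 lower, with 9.05% of all genes called. This comparison and the one before share the YAP Tg libraries, so that opposite directions in them are not independent.

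In Tet1 KO YAP Tg against Control, 12 of 30 chains were higher and 5 lower, where 39.0% of all genes were called (20.2% higher, 18.8% lower). The median log2 fold change was 0.17 over the chains and 0.022 over all genes. Of the fibrillar chains 5 were higher and 1 lower, of the basement membrane chains 4 and 2, and of the others 3 and 2. Only Col4a3 and Col12a1 were called with near-identical libraries added together, both higher, with 0.373% of all genes called. The 5 lower chains became 3 without Control library 2 and 3 without Control library 3 (7488 of 13649 and 4188 of 13673 genes called).

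With decitabine against Tet1 KO YAP Tg, 2 of 28 chains were higher (Col4a5 and Col11a2) and 9 were lower, where 60.7% of the 13949 genes tested were called (32.8% higher, 28.0% lower). The median log2 fold change was -0.23 over the chains and 0.068 over all genes. Of the 9 fibrillar chains 1 was higher and 2 were lower, of the 5 basement membrane chains 1 was higher and 1 lower, and of the 14 others none was higher and 6 were lower. Tet1 KO YAP Tg libraries are shared with the comparison of Tet1 KO YAP Tg over YAP Tg, so opposite directions there are not independent either. Without decitabine library 1, the number higher became 6, with Col1a1, Col1a2, Col4a1 and Col4a3 called higher (log2 fold changes 1.03, 0.45, 0.55 and 0.55). It became 1 without Tet1 KO YAP Tg library 1, Tet1 KO YAP Tg library 3, decitabine library 2 or decitabine library 3. Of all genes, 9049 were called without decitabine library 1 and 7493 to 8755 without any of the others just named. With near-identical libraries added together, Col4a5 was called higher and 5 chains were called lower (Col27a1, Col5a3, Col15a1, Col13a1 and Col6a5), with 26.2% of all genes called. Against Control, decitabine livers had 6 chains higher and 11 lower of 28, where 67.2% of all genes were called (36.5% higher, 30.7% lower). These became 6 higher and 7 lower with near-identical libraries added together, with 44.0% of all genes called.

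**Figure D1:**
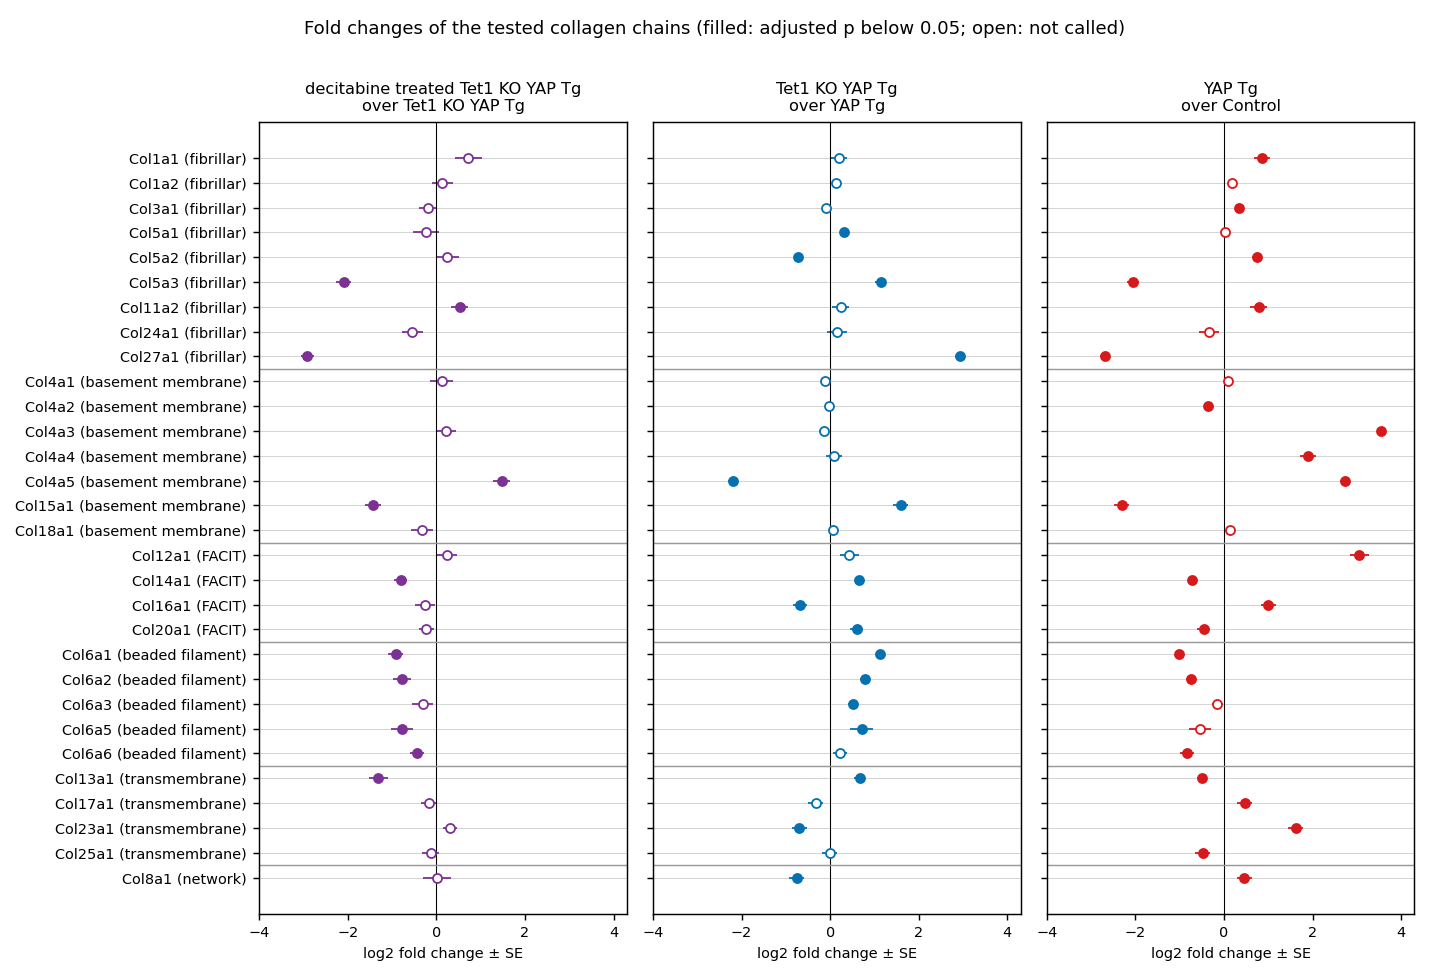
Log2 fold changes ± standard error (horizontal axis) of the tested collagen chains, by class down the page, for decitabine treated Tet1 KO YAP Tg over Tet1 KO YAP Tg, Tet1 KO YAP Tg over YAP Tg, and YAP Tg over Control; filled points are called at an adjusted p below 0.05. The widest are Col4a3, Col12a1, Col4a5, Col27a1, Col15a1 and Col5a3 in YAP Tg over Control, and Col4a2 and Col4a4 are not drawn for decitabine.

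Among fibrillar collagens, Col27a1 and Col5a3 differed most in YAP Tg against Control. Col27a1 encodes a chain of type XXVII collagen known from cartilage (chromosome 4, 63215411 to 63334990 in mm10, as are all positions below). Col27a1 had 3.76, 5.85 and 4.46 normalised reads with decitabine, 38.1, 39.3 and 36.8 in Tet1 KO YAP Tg, 4.9, 4.57 and 4.27 in YAP Tg and 33.4, 27.3 and 37.2 in Control. All 6 libraries of YAP Tg and of decitabine lay below 6, and all 6 of Tet1 KO YAP Tg and Control above 27, with no overlap. Col27a1 had a log2 fold change of -2.70 ± 0.10 (adjusted p = 4.64e-10) in YAP Tg against Control. It was 2.93 ± 0.10 (adjusted p = 2.81e-10) in Tet1 KO YAP Tg over YAP Tg, and -2.91 ± 0.15 (adjusted p = 3.81e-09) with decitabine against Tet1 KO YAP Tg. Tet1 KO YAP Tg and Control overlapped in Col27a1 and were not called different (0.23 ± 0.10, adjusted p = 0.0997), although leaving out Control library 3 gave a call (log2 0.33). The 3 comparisons of Col27a1 were also called with near-identical libraries added together (adjusted p = 0.00217, 0.00538 and 0.000596 in the same order).

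Col5a3, the third chain of type V collagen, which starts and limits the width of fibrils, had 3.09, 1.89 and 2.31 normalised reads with decitabine, 12.6, 12 and 10.9 in Tet1 KO YAP Tg, 4.86, 5.12 and 5.32 in YAP Tg and 25.9, 17.7 and 25.5 in Control. The 4 groups did not overlap: Control was highest, then Tet1 KO YAP Tg, then YAP Tg, and decitabine was lowest. It fell by 2.05 ± 0.13 on the log2 scale in YAP Tg against Control (adjusted p = 4.44e-08). It was higher in Tet1 KO YAP Tg than in YAP Tg (1.14 ± 0.13, adjusted p = 1.03e-05) and still lower there than in Control (-0.92 ± 0.13, adjusted p = 0.000253). With decitabine it was lower than in Tet1 KO YAP Tg (-2.09 ± 0.17, adjusted p = 3.01e-07) and than in Control (-3.01 ± 0.17, adjusted p = 7.44e-09). With near-identical libraries added together, the calls in YAP Tg against Control and with decitabine were kept (adjusted p = 0.00994 and 0.00339), and those of Tet1 KO YAP Tg were not.

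The other type V chains behaved differently from Col5a3. Col5a2 had 8.52, 9.4 and 21.2 normalised reads with decitabine, 11.3, 9.58 and 9.22 in Tet1 KO YAP Tg, 18.4, 15.8 and 16.5 in YAP Tg and 8.88, 10.7 and 10.1 in Control, so that YAP Tg lay above Control and above Tet1 KO YAP Tg in every library and decitabine library 3 stood above its other two. Col5a2 had a log2 fold change of 0.74 ± 0.10 (adjusted p = 4.07e-05) in YAP Tg against Control and -0.73 ± 0.10 (adjusted p = 5.66e-05) in Tet1 KO YAP Tg over YAP Tg. Col5a1 had 5.78, 14.5 and 19.3 normalised reads with decitabine, 13.7, 15.3 and 13.1 in Tet1 KO YAP Tg, 10.9, 12.1 and 10.6 in YAP Tg and 11.2, 11.7 and 10.3 in Control. It was not called in YAP Tg against Control (0.019 ± 0.089, adjusted p = 0.863) and was called higher in Tet1 KO YAP Tg than in YAP Tg (0.31 ± 0.089, adjusted p = 0.00895) and than in Control (0.33 ± 0.089, adjusted p = 0.0132). None of these calls on Col5a1 and Col5a2 was kept with near-identical libraries added together.

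The chains of the scar collagens, types I and III, differed less in YAP Tg against Control than Col27a1 and Col5a3. Col1a1, the chain present in excess in type I collagen, had 4.29, 5.98 and 12.9 normalised reads with decitabine, 3.93, 3.77 and 4.48 in Tet1 KO YAP Tg, 2.84, 3.47 and 4.3 in YAP Tg and 1.93, 1.2 and 2.14 in Control. Every YAP Tg, Tet1 KO YAP Tg and decitabine library lay above every Control library. Col1a1 had a log2 fold change against Control of 0.85 ± 0.18 (adjusted p = 0.00120) in YAP Tg, 1.04 ± 0.18 (adjusted p = 0.000975) in Tet1 KO YAP Tg and 1.75 ± 0.31 (adjusted p = 0.000223) with decitabine. With near-identical libraries added together only the last of these was kept (adjusted p = 0.00903). Decitabine against Tet1 KO YAP Tg was not called in the main test (0.71 ± 0.31, adjusted p = 0.0588) and was called by edgeR (0.87, adjusted p = 0.0395) and by DESeq2 (0.85, adjusted p = 0.0288). With limma it was also called with a replicate block (0.71, adjusted p = 0.0253) and without decitabine library 1 (1.03, adjusted p = 0.00615). On the TPM scale it was called too (0.96, adjusted p = 0.0178), and the other alternatives left it uncalled.

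Col1a2, the other type I chain, had 10.3, 16.3 and 25.4 normalised reads with decitabine, 15.3, 13.8 and 15.2 in Tet1 KO YAP Tg, 14.4, 12.6 and 13.3 in YAP Tg and 11, 12.7 and 11.5 in Control. YAP Tg overlapped Control and was not called (0.19 ± 0.085, adjusted p = 0.0672), and Tet1 KO YAP Tg was above Control (0.32 ± 0.085, adjusted p = 0.0117). Col3a1, the only chain of type III collagen, had 48.8, 54.3 and 97.2 normalised reads with decitabine, 74.1, 71.3 and 74.1 in Tet1 KO YAP Tg, 78.8, 75.2 and 80.7 in YAP Tg and 66.2, 54 and 66.7 in Control. All libraries of Tet1 KO YAP Tg and of YAP Tg lay above the Control ones, and decitabine library 3 lay above every other library. Col3a1 had a log2 fold change of 0.33 ± 0.077 (adjusted p = 0.00208) in YAP Tg against Control and 0.24 ± 0.077 (adjusted p = 0.0295) in Tet1 KO YAP Tg against Control. The call in Tet1 KO YAP Tg was lost without any 1 Tet1 KO YAP Tg library (adjusted p = 0.0575 to 0.0882), and no call on Col1a2 or Col3a1 was kept with near-identical libraries added together. Against Control, decitabine changed the sign of Col3a1 with 1 library: 0.037 with all 3 libraries, -0.27 without decitabine library 3 and 0.23 without decitabine library 1.

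**Figure D2:**
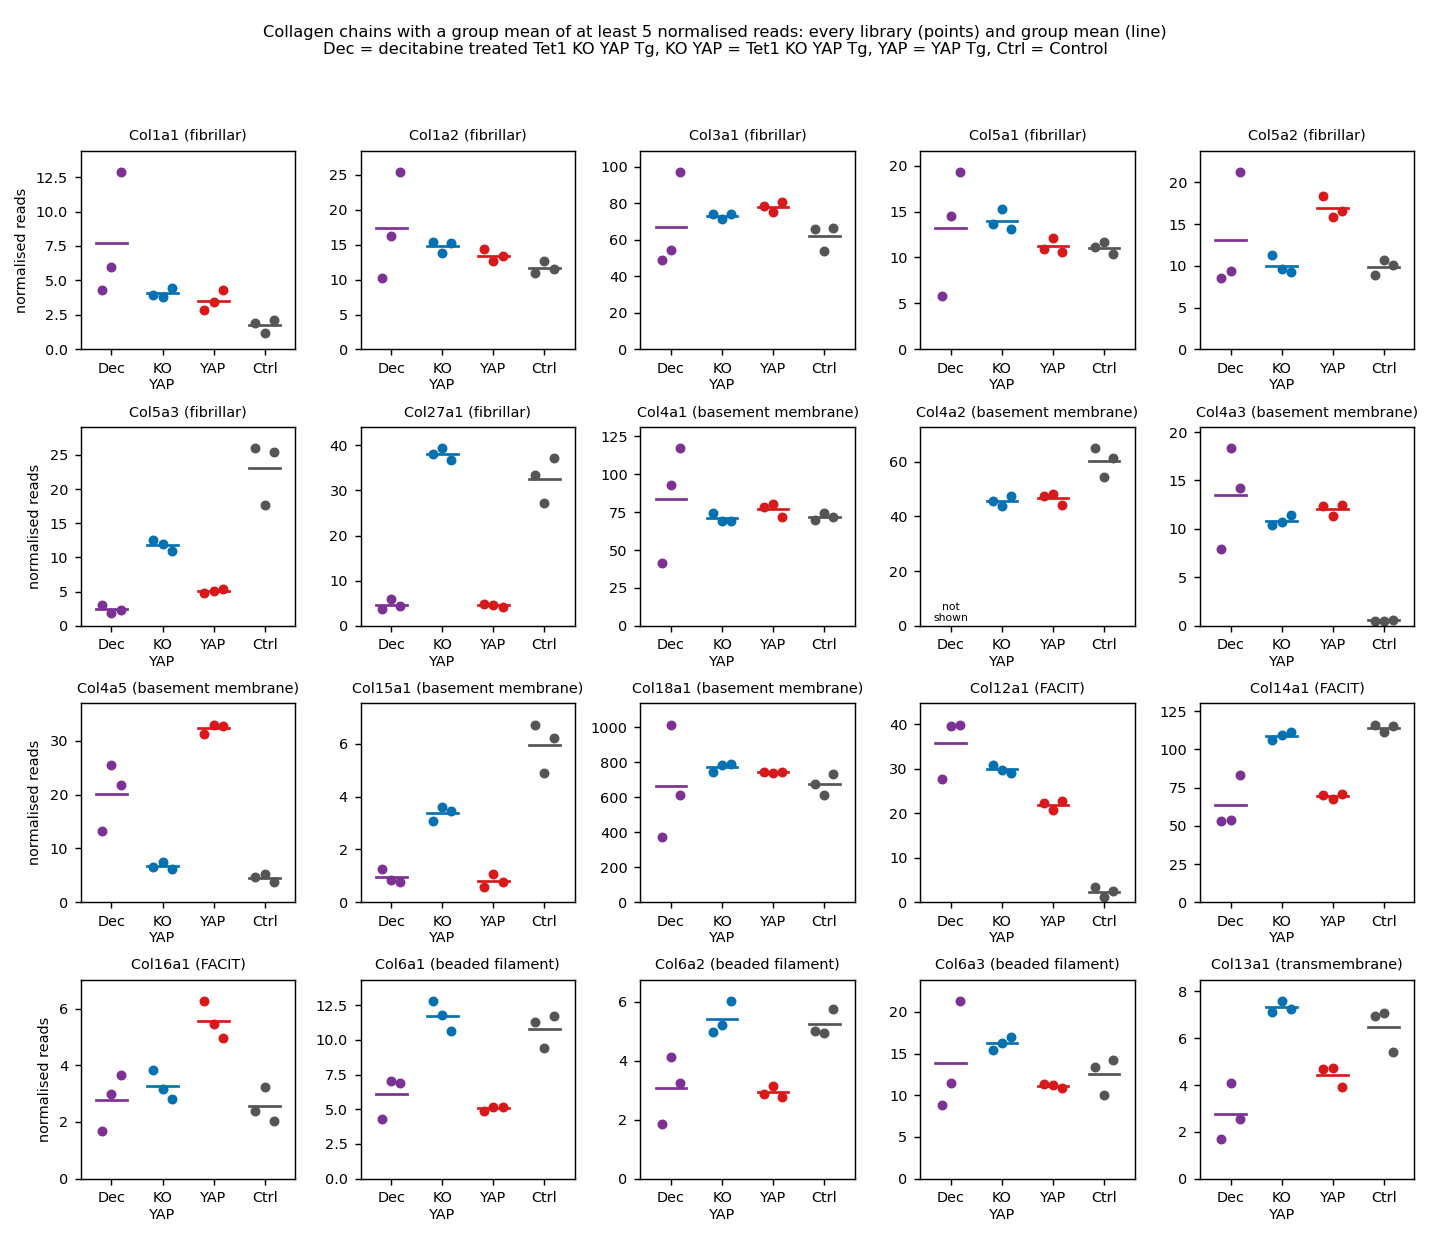
Normalised reads (vertical axes, linear from 0) of the 20 collagen chains with a group mean of at least 5, for every library of decitabine treated Tet1 KO YAP Tg, Tet1 KO YAP Tg, YAP Tg and Control, with the group mean as a line. Col27a1 lies below 6 in all decitabine and YAP Tg libraries and above 27 in all Tet1 KO YAP Tg and Control libraries; Col4a2 is not shown for decitabine because its reads are not certain.

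Basement membrane chains differed in another way, since 3 chains of type IV collagen that were low in Control were higher in YAP Tg. Type IV collagen is a meshwork. The chains Col4a1 and Col4a2 form it in most tissues, whereas Col4a3, Col4a4 and Col4a5 form together the network of the glomerulus that is lost in Alport syndrome. Col4a3 (chromosome 1, 82586920 to 82722059) had 7.95, 18.3 and 14.2 normalised reads with decitabine, 10.4, 10.7 and 11.4 in Tet1 KO YAP Tg, 12.4, 11.3 and 12.5 in YAP Tg and 0.526, 0.534 and 0.653 in Control, so that all 9 transgenic libraries lay above Control. Col4a3 had a log2 fold change of 3.55 ± 0.099 (adjusted p = 2.84e-11) in YAP Tg against Control, 3.41 ± 0.099 (adjusted p = 6.59e-10) in Tet1 KO YAP Tg against Control and 3.63 ± 0.22 (adjusted p = 1.31e-08) with decitabine against Control. Tet1 KO YAP Tg overlapped YAP Tg and was not called (-0.15 ± 0.099, adjusted p = 0.212), nor was decitabine against Tet1 KO YAP Tg (0.23 ± 0.22, adjusted p = 0.394), where leaving out decitabine library 1 gave a call (0.55, adjusted p = 0.00268). The 3 calls against Control were kept with near-identical libraries added together (adjusted p = 0.00195, 0.0266 and 0.000112).

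Col4a4 (chromosome 1, 82450722 to 82586849) lies head to head with Col4a3, with 70 bases between their starts, and had 3.84, 4.45 and 3.68 normalised reads in Tet1 KO YAP Tg, 3.89, 4.06 and 3.28 in YAP Tg and 0.701, 0.356 and 0.95 in Control. Col4a4 had a log2 fold change of 1.89 ± 0.18 (adjusted p = 1.71e-06) in YAP Tg against Control and 1.97 ± 0.18 (adjusted p = 7.89e-06) in Tet1 KO YAP Tg against Control, with Tet1 KO YAP Tg and YAP Tg overlapping and not called different (0.084 ± 0.18, adjusted p = 0.699). With decitabine the reads of Col4a4 could not be fixed: the smallest whole-number reads were 1.95, 5.31 and 3.42 normalised reads and the next possible ones 3.90, 10.6 and 6.85, all above Control either way. The deposited TPM were 1.06, 3.42 and 2.12.

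Col4a5 (chromosome X, 141475418 to 141689235) had 13.2, 25.5 and 21.8 normalised reads with decitabine, 6.57, 7.45 and 6.13 in Tet1 KO YAP Tg, 31.3, 33 and 32.7 in YAP Tg and 4.68, 5.16 and 3.68 in Control. YAP Tg was highest, decitabine lay between YAP Tg and Tet1 KO YAP Tg, and no library of one group overlapped another. Col4a5 had a log2 fold change of 2.72 ± 0.11 (adjusted p = 1.07e-09) in YAP Tg against Control, and -2.19 ± 0.11 (adjusted p = 9.01e-09) in Tet1 KO YAP Tg over YAP Tg. Tet1 KO YAP Tg was still above Control (0.54 ± 0.11, adjusted p = 0.00361), and decitabine was above Tet1 KO YAP Tg (1.47 ± 0.20, adjusted p = 2.94e-05). All but the comparison of Tet1 KO YAP Tg with Control were kept with near-identical libraries added together (adjusted p = 0.00351, 0.0271 and 0.0266). Col4a6, which lies head to head with Col4a5 with 1341 bases between the starts, stayed between 0.0344 and 0.320 normalised reads in all 12 libraries.

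The common type IV pair gave smaller values in YAP Tg against Control than Col4a3, Col4a4 and Col4a5. Col4a1 had 41.4, 92.7 and 117 normalised reads with decitabine, 74.3, 69 and 69.2 in Tet1 KO YAP Tg, 78.4, 80.2 and 71.7 in YAP Tg and 70.1, 74.5 and 71.5 in Control, with all groups overlapping Control and no comparison called (YAP Tg against Control 0.090 ± 0.059, adjusted p = 0.190). Without decitabine library 1, decitabine was called higher than Tet1 KO YAP Tg in Col4a1 (0.55, adjusted p = 0.000294). Col4a2, which starts 1 base from the start of Col4a1 on the other strand, had 45.8, 43.8 and 47.3 normalised reads in Tet1 KO YAP Tg, 47.6, 48.2 and 44 in YAP Tg and 64.9, 54.4 and 61.2 in Control. It was lower than in Control in YAP Tg (-0.36 ± 0.071, adjusted p = 0.000703) and in Tet1 KO YAP Tg (-0.39 ± 0.071, adjusted p = 0.00132), calls that were lost with near-identical libraries added together. With decitabine Col4a2 had 6.27, 18 and 18.9 TPM as deposited, and was called lower than in Tet1 KO YAP Tg with the smallest whole-number reads (-1.35, adjusted p = 0.000605) and not with the reads 2 times as large (-0.37, adjusted p = 0.244). Against Control, Col4a2 was called lower with decitabine under both readings (-1.74, adjusted p = 6.06e-05, and -0.76, adjusted p = 0.0215).

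Col15a1 and Col18a1 are the multiplexins, basement membrane collagens that carry sugar chains. Col15a1 had 1.24, 0.835 and 0.784 normalised reads with decitabine, 3.08, 3.59 and 3.47 in Tet1 KO YAP Tg, 0.576, 1.07 and 0.766 in YAP Tg and 6.72, 4.89 and 6.23 in Control. All YAP Tg and decitabine libraries lay below 1.3 and all others above 3. Col15a1 had a log2 fold change of -2.31 ± 0.16 (adjusted p = 9.2e-08) in YAP Tg against Control, 1.59 ± 0.16 (adjusted p = 3.16e-06) in Tet1 KO YAP Tg over YAP Tg and -1.43 ± 0.18 (adjusted p = 1.76e-05) with decitabine against Tet1 KO YAP Tg, and these were kept with near-identical libraries added together (adjusted p = 0.00392, 0.0438 and 0.0112). Tet1 KO YAP Tg remained below Control (-0.72 ± 0.16, adjusted p = 0.00435), which was not kept. Col18a1, the most abundant chain, had 374, 1015 and 613 normalised reads with decitabine, 746, 787 and 792 in Tet1 KO YAP Tg, 746, 742 and 744 in YAP Tg and 675, 614 and 734 in Control, and only Tet1 KO YAP Tg against Control was called (0.20 ± 0.062, adjusted p = 0.0226), a call lost with near-identical libraries added together or without Tet1 KO YAP Tg library 2 or 3. Without decitabine library 2, Col18a1 was called lower with decitabine than in Tet1 KO YAP Tg (-0.69) and than in Control (-0.49).

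Start regions of 4 chains are shown for their CpG dinucleotides, the sites that TET1 and DNA methyltransferases act on. Windows of 300 bases, 250 before and 50 after the start, were taken from RefSeq (GRCm38.p6) for 34 of the 43 chains, and those below are written 5′ to 3′ on the gene's strand with each CG in capitals. Col4a4 is shown because its window also covers the start of Col4a3, Col4a5 and Col27a1 because they moved in opposite directions, and Col4a1 because it was not called.
Col4a4 (chr1:82586800-82587099, minus strand, 14 CpG): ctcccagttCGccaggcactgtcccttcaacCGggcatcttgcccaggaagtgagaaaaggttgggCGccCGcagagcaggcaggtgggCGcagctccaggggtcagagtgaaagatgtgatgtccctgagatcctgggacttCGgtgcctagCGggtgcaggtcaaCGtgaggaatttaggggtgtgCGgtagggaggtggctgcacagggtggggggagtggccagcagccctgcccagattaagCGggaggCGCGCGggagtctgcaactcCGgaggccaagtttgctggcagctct
Col4a5 (chrX:141475169-141475468, plus strand, 11 CpG): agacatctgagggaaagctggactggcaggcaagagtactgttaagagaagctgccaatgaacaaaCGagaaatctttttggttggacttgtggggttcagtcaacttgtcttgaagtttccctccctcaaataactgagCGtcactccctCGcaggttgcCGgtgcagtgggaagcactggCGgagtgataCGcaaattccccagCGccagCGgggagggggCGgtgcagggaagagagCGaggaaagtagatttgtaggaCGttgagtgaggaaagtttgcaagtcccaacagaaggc
Col27a1 (chr4:63215162-63215461, plus strand, 18 CpG): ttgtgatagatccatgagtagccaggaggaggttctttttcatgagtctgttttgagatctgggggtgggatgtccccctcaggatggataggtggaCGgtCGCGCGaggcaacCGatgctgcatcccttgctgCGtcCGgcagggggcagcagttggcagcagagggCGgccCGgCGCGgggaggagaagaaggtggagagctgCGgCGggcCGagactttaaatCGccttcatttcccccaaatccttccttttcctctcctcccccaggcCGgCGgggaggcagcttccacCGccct
Col4a1 (chr8:11312777-11313076, minus strand, 37 CpG): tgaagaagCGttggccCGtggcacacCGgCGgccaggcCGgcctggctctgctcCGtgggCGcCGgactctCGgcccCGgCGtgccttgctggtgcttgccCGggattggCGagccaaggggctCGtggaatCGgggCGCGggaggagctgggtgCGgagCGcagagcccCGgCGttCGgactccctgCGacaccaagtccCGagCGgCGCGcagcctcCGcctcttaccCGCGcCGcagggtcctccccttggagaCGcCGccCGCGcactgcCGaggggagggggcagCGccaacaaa
The median was 12.5 CpG per window over the 34 chains and 7 over 27025 windows of all genes. These sets were not chosen alike. Collagen windows are those nearest the deposited gene start, whereas the others are the first listed per gene and include genes without RNA values here. The letters GGAATG, or CATTCC on the other strand, the core of TEAD sites, were found in 4 of 34 collagen windows (Col3a1, Col6a2, Col20a1 and Col4a6; 11.8%) and in 3955 of 27025 windows of all genes (14.6%). They are not in the 4 windows printed here, which says nothing of binding elsewhere.

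Among FACITs, Col12a1, which binds the surface of type I fibrils, rose furthest (chromosome 9, 79598986 to 79718722). Col12a1 had 27.7, 39.7 and 39.9 normalised reads with decitabine, 30.9, 29.8 and 29 in Tet1 KO YAP Tg, 22.3, 20.9 and 22.8 in YAP Tg and 3.39, 1.25 and 2.43 in Control. All 9 transgenic libraries were above 20 and all Control libraries below 3.4. Col12a1 had a log2 fold change of 3.05 ± 0.21 (adjusted p = 1.0e-07) in YAP Tg against Control, 3.49 ± 0.21 (adjusted p = 3.0e-07) in Tet1 KO YAP Tg against Control and 3.72 ± 0.23 (adjusted p = 1.57e-08) with decitabine against Control, all kept with near-identical libraries added together (adjusted p = 0.00235, 0.0164 and 6.56e-05). Tet1 KO YAP Tg lay above YAP Tg in every library without being called (0.44 ± 0.21, adjusted p = 0.0910), while edgeR (adjusted p = 0.0153) and DESeq2 (adjusted p = 0.00392) did call it higher.

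Col14a1, a FACIT of quiescent fibroblasts and stellate cells, went the other way. It had 53, 53.7 and 83.6 normalised reads with decitabine, 106, 109 and 111 in Tet1 KO YAP Tg, 70.2, 67.5 and 70.9 in YAP Tg and 116, 111 and 115 in Control, and YAP Tg and decitabine lay below Tet1 KO YAP Tg and Control in every library. Col14a1 had a log2 fold change of -0.71 ± 0.048 (adjusted p = 7.02e-08) in YAP Tg against Control, 0.64 ± 0.048 (adjusted p = 2.06e-07) in Tet1 KO YAP Tg over YAP Tg and -0.81 ± 0.14 (adjusted p = 0.000266) with decitabine against Tet1 KO YAP Tg. Col16a1, which associates with fibrils and microfibrils, had 1.67, 2.99 and 3.67 normalised reads with decitabine, 3.84, 3.18 and 2.83 in Tet1 KO YAP Tg, 6.26, 5.46 and 4.96 in YAP Tg and 2.4, 3.25 and 2.02 in Control. It was higher in YAP Tg than in Control (1.00 ± 0.16, adjusted p = 0.000146) and lower in Tet1 KO YAP Tg than in YAP Tg (-0.68 ± 0.16, adjusted p = 0.00266). None of these calls was kept with near-identical libraries added together. Of the other 6 FACIT chains only Col20a1 passed the filter, at a mean of 0.604 ± 0.0927 in YAP Tg against 1.01 ± 0.142 in Control.

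Type VI chains assemble into beaded filaments near cells. Col6a1 had 4.29, 7.0 and 6.89 normalised reads with decitabine, 12.8, 11.8 and 10.6 in Tet1 KO YAP Tg, 4.9, 5.19 and 5.18 in YAP Tg and 11.3, 9.43 and 11.7 in Control, and all YAP Tg and decitabine libraries lay below all of Tet1 KO YAP Tg and Control. Col6a1 had a log2 fold change of -1.01 ± 0.10 (adjusted p = 2.97e-06) in YAP Tg against Control, 1.13 ± 0.10 (adjusted p = 1.31e-06) in Tet1 KO YAP Tg over YAP Tg and -0.92 ± 0.17 (adjusted p = 0.000363) with decitabine against Tet1 KO YAP Tg. Col6a2 had 1.85, 4.12 and 3.26 normalised reads with decitabine, 4.96, 5.22 and 6.02 in Tet1 KO YAP Tg, 2.88, 3.16 and 2.77 in YAP Tg and 5.03, 4.94 and 5.76 in Control. It gave -0.74 ± 0.11 (adjusted p = 8.59e-05) in YAP Tg against Control, 0.78 ± 0.11 (adjusted p = 6.33e-05) in Tet1 KO YAP Tg over YAP Tg and -0.77 ± 0.20 (adjusted p = 0.00539) with decitabine against Tet1 KO YAP Tg. Col6a3, the longest type VI chain in the table, had 8.84, 11.5 and 21.3 normalised reads with decitabine, 15.4, 16.3 and 17 in Tet1 KO YAP Tg, 11.3, 11.2 and 10.9 in YAP Tg and 13.4, 10.0 and 14.2 in Control and was called higher in Tet1 KO YAP Tg than in YAP Tg (0.52 ± 0.11, adjusted p = 0.00152) but not changed in YAP Tg against Control (-0.15 ± 0.11, adjusted p = 0.266). Without Control library 2, Col6a3 was called lower in YAP Tg than in Control (-0.29, adjusted p = 0.00233). Col6a5 and Col6a6, below 1 normalised read on average in every group, were called lower with decitabine than in Tet1 KO YAP Tg (-0.78 and -0.44). Of the type VI calls given here only that of Col6a5 was kept with near-identical libraries added together (adjusted p = 0.0455).

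Transmembrane collagens are held in the cell surface and can be shed. Col13a1 had 1.7, 4.07 and 2.56 normalised reads with decitabine, 7.11, 7.59 and 7.25 in Tet1 KO YAP Tg, 4.68, 4.71 and 3.94 in YAP Tg and 6.95, 7.07 and 5.4 in Control. YAP Tg and decitabine lay below Control and Tet1 KO YAP Tg in every library. Col13a1 had a log2 fold change of -0.49 ± 0.12 (adjusted p = 0.00266) in YAP Tg against Control, 0.66 ± 0.12 (adjusted p = 0.000344) in Tet1 KO YAP Tg over YAP Tg and -1.32 ± 0.21 (adjusted p = 0.000156) with decitabine against Tet1 KO YAP Tg, of which only the last was kept with near-identical libraries added together (adjusted p = 0.0422). Col23a1 was scarcely read in Control (5 reads over 3 libraries) and averaged 0.888 ± 0.0468 with decitabine, 0.622 ± 0.0793 in Tet1 KO YAP Tg, 1.34 ± 0.303 in YAP Tg and 0.0934 ± 0.0423 in Control. It was higher in YAP Tg than in Control (1.62 ± 0.17, adjusted p = 3.22e-06, kept with near-identical libraries added together) and lower in Tet1 KO YAP Tg than in YAP Tg (-0.70 ± 0.17, adjusted p = 0.00279). Col17a1 was called higher and Col25a1 lower in YAP Tg than in Control at levels below 1 (0.47 and -0.48), where Col17a1 reached the filter of 0.5 in YAP Tg libraries alone, so that its direction was set by the filter. The network chain Col8a1 was 1.7 ± 0.214 in YAP Tg against 1.11 ± 0.325 in Control (0.46 ± 0.17, adjusted p = 0.0323). Of low fibrillar chains, Col11a2 averaged 2.5 ± 0.264 with decitabine, 1.6 ± 0.344 in Tet1 KO YAP Tg, 1.27 ± 0.157 in YAP Tg and 0.545 ± 0.233 in Control, with 0.78 ± 0.19 (adjusted p = 0.00329) in YAP Tg against Control. Col24a1, a fibrillar chain of developing bone, averaged 0.42 ± 0.18 with decitabine and 1.03 ± 0.365 in Control (-0.73 ± 0.24, adjusted p = 0.0158). The 13 chains that did not pass the filter, among them the cartilage chains Col2a1, Col9a1, Col9a2 and Col11a1, averaged at most 0.367 normalised reads in any group (Col9a3 with decitabine).

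Chain levels per kilobase of gene length show how the chains of 1 collagen compare. Per kilobase Col18a1 ranked first in every group, at 115 ± 56 with decitabine, 134 ± 4.33 in Tet1 KO YAP Tg, 128 ± 0.367 in YAP Tg and 116 ± 10.4 in Control (SD, n = 3). Col18a1 took 61.1% ± 9.36 of the reads of all collagen chains with decitabine, 60.8% ± 1.0 in Tet1 KO YAP Tg, 63.2% ± 0.233 in YAP Tg and 59.5% ± 1.19 in Control, where the decitabine share rests on the smallest reads of Col4a2, Col4a4 and Col7a1. Summed over the 11 fibrillar chains, levels were 87, 111 and 186 normalised reads with decitabine, 172, 168 and 167 in Tet1 KO YAP Tg, 138, 131 and 137 in YAP Tg and 160, 137 and 165 in Control. The fibrillar sums of YAP Tg and Control overlapped, and decitabine spanned both. Within these sums Col5a3 and Col27a1 averaged 5.1 and 4.58 in YAP Tg, against 23 and 32.6 in Control.

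Within type IV, the ratio of Col4a3 to Col4a5 per kilobase was 0.496 ± 0.045 with decitabine, 1.23 ± 0.162 in Tet1 KO YAP Tg, 0.282 ± 0.0205 in YAP Tg and 0.0989 ± 0.0304 in Control (SD, n = 3). The 4 ranges of that ratio do not overlap. Col4a1 exceeded Col4a5 per kilobase by 3.97 ± 1.15 times with decitabine, 10.4 ± 1.15 times in Tet1 KO YAP Tg, 2.33 ± 0.159 times in YAP Tg and 16 ± 2.68 times in Control. Within type V, Col5a3 over Col5a2 was 0.243 ± 0.140 with decitabine, 1.28 ± 0.0743 in Tet1 KO YAP Tg, 0.330 ± 0.0364 in YAP Tg and 2.57 ± 0.706 in Control. Within type I, Col1a1 over Col1a2 was 0.471 ± 0.0774 with decitabine, 0.301 ± 0.0209 in Tet1 KO YAP Tg, 0.291 ± 0.0692 in YAP Tg and 0.166 ± 0.0545 in Control, below 1 throughout, although the mature type I helix holds more Col1a1 than Col1a2.

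**Figure D3:**
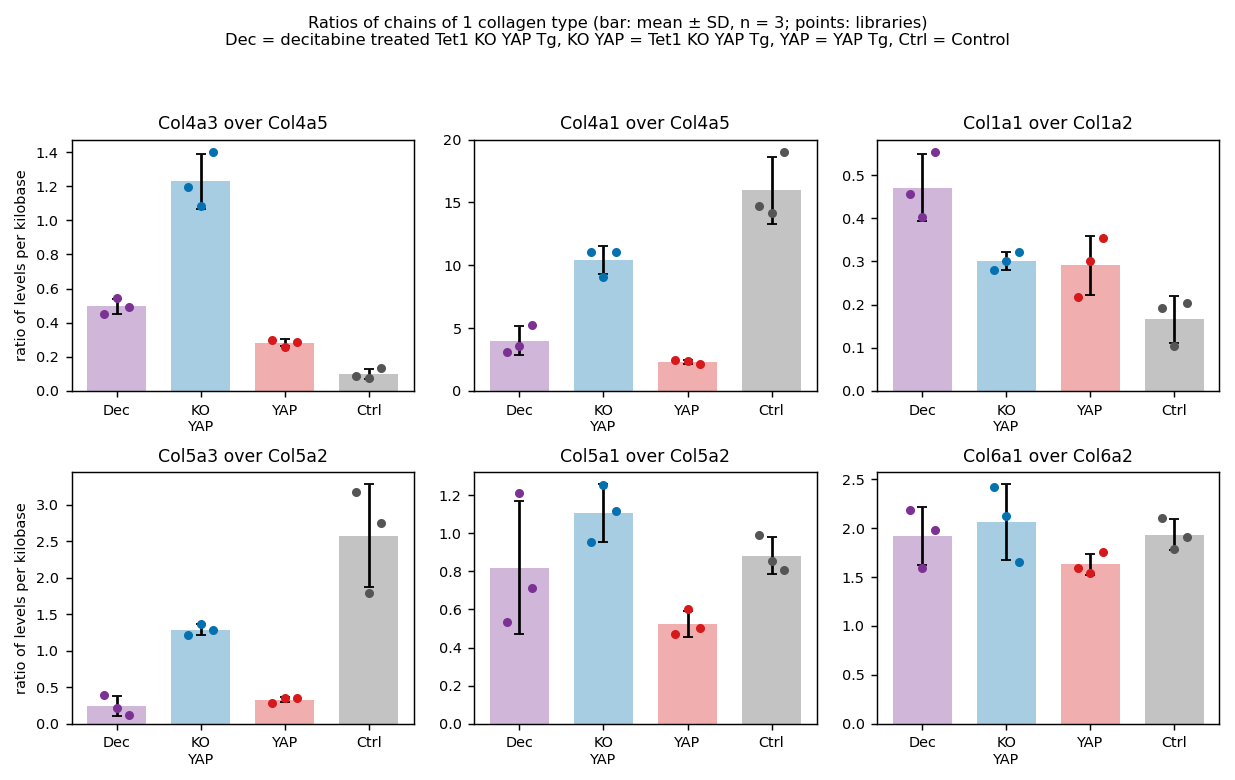
Ratios of levels per kilobase (vertical axes, from 0) between chains of 1 collagen type, for decitabine treated Tet1 KO YAP Tg, Tet1 KO YAP Tg, YAP Tg and Control; bars are means with SD of 3 libraries and points are libraries. Col4a3 over Col4a5 is 1.23 in Tet1 KO YAP Tg and 0.282 in YAP Tg on average, and Col5a3 over Col5a2 is 0.330 in YAP Tg and 2.57 in Control.

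Genes that make, cut and sense collagen were counted in the same way. Their shares of calls in YAP Tg against Control lay near the 70.5% of all genes, so that the counts say nothing particular of these lists. The decitabine reads of these genes, and of the cell type markers below, were not checked against a coding sequence and may be too small for some. Of 30 tested biosynthesis genes, 10 were higher and 11 lower in YAP Tg than in Control, 10 higher and 9 lower in Tet1 KO YAP Tg than in YAP Tg, and 9 higher and 7 lower with decitabine than in Tet1 KO YAP Tg, where 70.5%, 67.4% and 60.7% of all genes were called in these 3 comparisons. P3h2, a prolyl 3-hydroxylase that acts on type IV collagen, averaged 20.1 ± 0.457 normalised reads in YAP Tg and 0.757 ± 0.128 in Control (log2 4.04, adjusted p = 5.63e-11). P3h2 averaged 10.3 ± 4.74 with decitabine and 0.927 ± 0.132 in Tet1 KO YAP Tg (log2 2.80, adjusted p = 2.06e-06). Pcolce, which speeds the cleavage of fibrillar procollagens, averaged 42.4 ± 1.09 in YAP Tg and 4.44 ± 0.255 in Control (log2 3.12, adjusted p = 1.79e-11). The level of Pcolce was 5.55 ± 0.419 in Tet1 KO YAP Tg livers and 42.4 ± 1.09 in YAP Tg livers (log2 -2.83, adjusted p = 5.42e-11). Mia3, which loads procollagen into carriers for secretion, averaged 200.0 ± 8.72 in YAP Tg and 482 ± 60.1 in Control (log2 -1.26, adjusted p = 3.69e-08).

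Among 9 tested genes of collagen turnover, 5 were higher and 1 lower in YAP Tg than in Control, 1 higher and 4 lower in Tet1 KO YAP Tg than in YAP Tg, and 6 higher and 1 lower with decitabine than in Tet1 KO YAP Tg (all genes 70.5%, 67.4% and 60.7% called). Mmp14, a membrane-bound collagenase, averaged 44.9 ± 0.657 in YAP Tg and 17.2 ± 2.72 in Control (log2 1.37, adjusted p = 1.14e-07). Timp2, an inhibitor of these proteases, averaged 67.1 ± 2.08 in YAP Tg and 9.17 ± 0.133 in Control (log2 2.80, adjusted p = 4.24e-12), and 57.8 ± 17.9 with decitabine and 8.72 ± 0.208 in Tet1 KO YAP Tg (log2 2.61, adjusted p = 5.93e-08). Of 7 tested collagen receptors, 3 were higher and 2 lower in YAP Tg than in Control (all genes 70.5% called). Ddr1, a receptor kinase of epithelial cells, averaged 11.3 ± 0.758 in YAP Tg and 1.15 ± 0.278 in Control (log2 2.85, adjusted p = 2.36e-07). Ddr2, its relative in mesenchymal cells, averaged 7.22 ± 0.515 in YAP Tg and 15.7 ± 2.61 in Control (log2 -1.06, adjusted p = 6.31e-06). Lair1, a collagen receptor of immune cells, averaged 39 ± 2.47 in YAP Tg and 5.57 ± 0.325 in Control (log2 2.70, adjusted p = 8.64e-10).

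Markers of the cells that make collagen moved with these comparisons, and in bulk liver fewer cells of a type and less RNA per cell cannot be told apart. Summed over 8 stellate cell markers, levels were 329 to 421 normalised reads with decitabine, 593 to 597 in Tet1 KO YAP Tg, 349 to 366 in YAP Tg and 548 to 619 in Control. Of these 8 markers 7 were lower in YAP Tg than in Control, 8 higher in Tet1 KO YAP Tg than in YAP Tg, and 6 lower with decitabine than in Tet1 KO YAP Tg, where 34.5% of all genes were lower, 33.4% higher and 28.0% lower in these 3 comparisons. The stellate sums of decitabine and YAP Tg libraries lay below those of Tet1 KO YAP Tg and Control, as did the levels of Col14a1, Col27a1, Col5a3, Col15a1, Col6a1, Col6a2 and Col13a1. The stellate cell products Col1a1, Col1a2 and Col3a1 did not follow that order: Col1a1 and Col3a1 were called higher in YAP Tg than in Control, and Col1a2 was not called. Col4a5 and Col23a1 had the opposite order, with every YAP Tg and decitabine library above those of Tet1 KO YAP Tg and Control. How many of all genes have either order was not counted. Lrat, the enzyme that stores vitamin A in stellate cells, averaged 19.9 ± 1.78 in YAP Tg and 63 ± 7.5 in Control (log2 -1.64, adjusted p = 1.14e-08). Summed over 3 myofibroblast markers, levels were 5.39 to 17.9 with decitabine, 7.86 to 9.61 in Tet1 KO YAP Tg, 14.8 to 16 in YAP Tg and 9.47 to 13.7 in Control, with 2 higher and 1 lower in YAP Tg than in Control (all genes 36.1% higher and 34.5% lower).

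Other cell types moved too. Summed over 5 macrophage markers, levels were 1166 to 1379 with decitabine, 273 to 282 in Tet1 KO YAP Tg, 973 to 993 in YAP Tg and 222 to 298 in Control. All 5 were higher in YAP Tg than in Control, where 36.1% of all genes were called higher. Over 5 portal fibroblast markers the sums were 5.04 to 9.61 with decitabine, 4.85 to 5.09 in Tet1 KO YAP Tg, 10.7 to 12.2 in YAP Tg and 4.57 to 5.55 in Control. Over 5 cholangiocyte markers they were 11.2 to 19.2 with decitabine, 7.68 to 8.85 in Tet1 KO YAP Tg, 13.4 to 14.7 in YAP Tg and 5.52 to 8.78 in Control, with Sox9 the largest part of the sum with decitabine and in YAP Tg. Of these 5 markers Sox9 and Epcam were higher in YAP Tg than in Control (all genes 36.1% higher), with a median log2 change of -0.11. With decitabine Sox9 was higher and Krt19 and Epcam lower than in Tet1 KO YAP Tg (all genes 32.8% higher and 28.0% lower), with a median of -0.34. Over 8 endothelial markers the sums were 466 to 665 with decitabine, 488 to 491 in Tet1 KO YAP Tg, 519 to 534 in YAP Tg and 491 to 528 in Control. Their members went both ways: 3 were higher and 4 lower in YAP Tg than in Control (all genes 36.1% and 34.5%). In Tet1 KO YAP Tg over YAP Tg 3 were higher and 3 lower (all genes 33.4% and 34.0%). With decitabine 4 were higher and 2 lower than in Tet1 KO YAP Tg (all genes 32.8% and 28.0%). Over 5 hepatocyte markers, which define the labelled tissue, the sums were 103175 to 122343 with decitabine, 53799 to 56175 in Tet1 KO YAP Tg, 117433 to 119959 in YAP Tg and 106900 to 124786 in Control. Most of these sums is Alb, at a mean of 102361 with decitabine, 41339 in Tet1 KO YAP Tg, 106706 in YAP Tg and 99329 in Control. In Tet1 KO YAP Tg over YAP Tg, Alb and Apoa1 were called lower, and Hnf4a, Cps1 and Tat were called higher (log2 0.52, 0.86 and 1.67), where 34.0% of all genes were lower and 33.4% higher. No marker of these lists was at 0 in every library of a group. The part of cell makeup in the differences of the collagen chains was not tested.

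**Figure D4:**
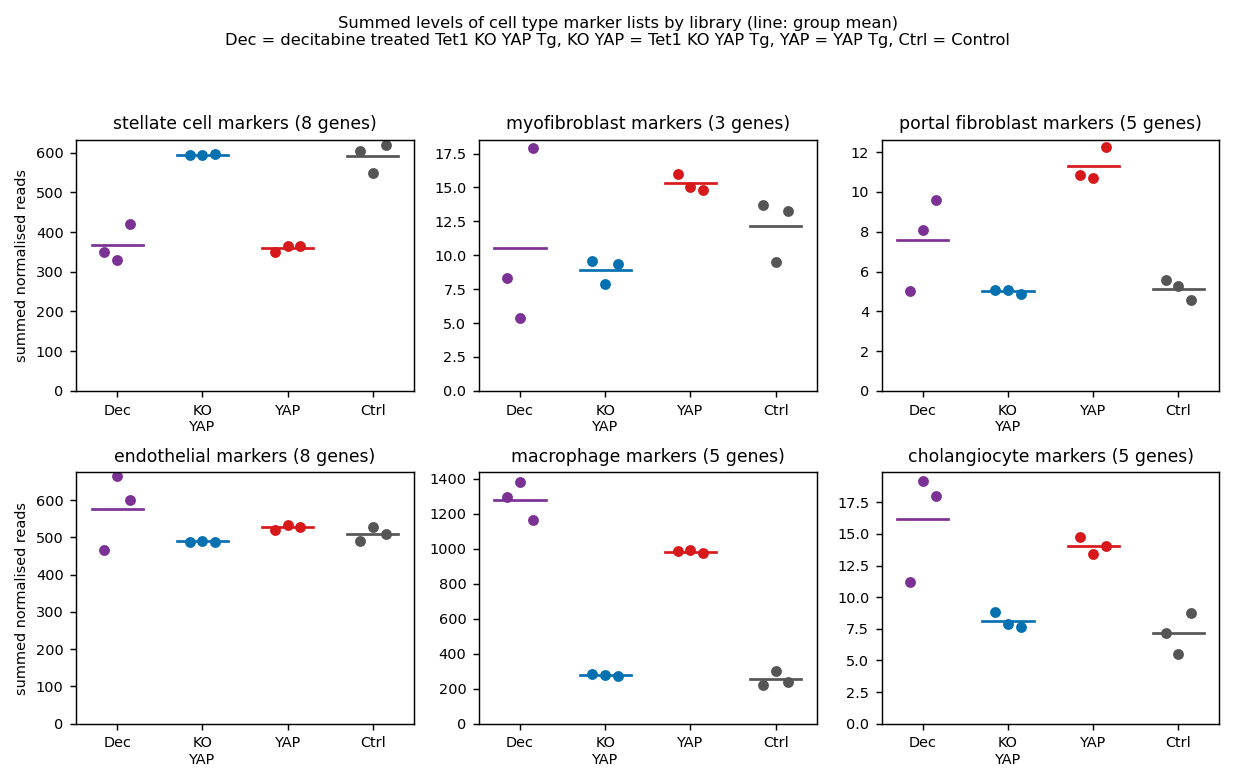
Summed normalised reads (vertical axes, from 0) of 6 lists of cell type markers in every library of decitabine treated Tet1 KO YAP Tg, Tet1 KO YAP Tg, YAP Tg and Control, with the group mean as a line. Stellate cell markers sum to 349 to 366 in YAP Tg and 548 to 619 in Control, and macrophage markers to 973 to 993 in YAP Tg and 222 to 298 in Control.

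The unit of the decitabine columns bears on collagens, whose genes are longer than the median gene. The median recovered length was 5791 bases over 37 collagen chains and 2868 over 10222 genes with at least 50 reads in each Tet1 KO YAP Tg and decitabine library. Over these 10222 genes, the log2 fold change of decitabine over Tet1 KO YAP Tg in the authors' deposited table was above log2(mean TPM / mean normalised reads) by 0.042 to 0.14 (1st to 99th percentile), so that it compares TPM with values not divided by length. Of 28 chains tested here, 26 had a negative and 2 a positive fold change in the authors' deposited table, with a median of -1.36 there and -0.23 from recovered reads. The sign was opposite for 8 of the 28. At a false discovery rate below 0.05, 13 chains were lower and 0 higher in the authors' deposited table, against 9 lower and 2 higher from recovered reads. For YAP Tg against Control, where both groups share the unit, no sign differed and the medians were 0.054 in the authors' deposited table and 0.055 here.

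Col4a3bp, the match that is no collagen, had 79.4, 67.8 and 71.9 normalised reads with decitabine, 61.5, 64.5 and 65.8 in Tet1 KO YAP Tg, 64.7, 56.8 and 67.3 in YAP Tg and 66.8, 59.5 and 70.6 in Control, and none of its 5 comparisons was called.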

How the data were processed

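Liver RNA was sequenced in 12 of the series' 36 samples. The 24 others (methylated DNA, ChIP and input) are not analysed here. The submitters' processing notes name TopHat2, featureCounts, edgeR and mm10, with neither versions nor options. For the 9 libraries without decitabine the deposited values are a normalised signal whose columns sum to 846970 to 1184333, and 100% of values below 2000 reads were whole multiples of 1 read within 0.02 of a read. For decitabine the deposited values are TPM. The authors' own statistics in the same table, log2 fold changes and mean log2 expression, a likelihood ratio score, and p-values with false discovery rates, per the file headers, were used only where named.

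Reads and gene lengths were recovered from the TPM as the smallest whole numbers that fit the 3 decitabine libraries. On simulated data 91.8% of 3193 genes with at least 10 reads came back exactly, 6.20% too small by a factor of 2 and 2.00% by 3 or more. Of 38 chains with a recovered length that were checked against their coding sequence, 3 were shorter (Col4a2, Col4a4 and Col7a1) and were left out of decitabine comparisons. Genes other than collagen chains were not checked. Some of their decitabine reads and lengths may thus be too small by such a factor, which also bears on the shares of all genes called. Decitabine reads were scaled to the other libraries with TMM factors (edgeR 4.0.16).

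Tests used limma 3.58.1 with an intensity trend on log2(value + 0.5), 2-sided, in R 4.3.3, with Benjamini-Hochberg adjustment over all genes that reached 0.5 in 3 or more libraries: 13730 in the fit of 9 libraries, and 13949 in the fit of 12 libraries used for decitabine. Tested on simulated data, both fits recovered 100% of changes of 1 and 2 on the log2 scale. The simulation gave every library the same spread, smaller than that between decitabine libraries, and changed only genes with a mean of at least 2. Recovery of changes in lower chains, or at the spread of the decitabine libraries, was not tested. The alternatives are edgeR's quasi-likelihood test and DESeq2 1.42.0 on recovered reads, other pseudocounts and filters, only both groups, a replicate block, each library left out, near-identical libraries (coefficient of variation beyond sampling below 0.05) added together, library weights and the TPM scale. Chains with a mean of at least 5 normalised reads in a group are given in every library, lower ones by range, count or class. Genes named from the biosynthesis, turnover and receptor lists, and Lrat, are among those with the largest called changes. Up to 4 per list and comparison were eligible, and not all of them are named (Mmp9 and Pcolce2 are not). The chains, lists and tests were chosen with earlier results of these data known, and the pattern itself uses no measured value. Depth limits low chains: intervals were not computed, and 1 read is a large part of a level below 1. Promoter windows are RefSeq's, matched by symbol.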

Additional observations from a re-analysis of the deposited data

How the results depend on the processing

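Of 1682 recomputed results of named chains, 1599 stayed on their side of the threshold, 49 lost the call and 33 gained one. Results without a call may have changed sign among the 1599. The remaining 1 was called with the opposite sign: Col3a1 with decitabine against Control became -0.27 (called) without decitabine library 3, and 0.23 without library 1. With near-identical libraries added together the counts of called chains were 5 higher and 3 lower in YAP Tg against Control, 2 and 1 for Tet1 KO YAP Tg over YAP Tg, 2 and 0 for Tet1 KO YAP Tg over Control, 1 and 5 with decitabine against Tet1 KO YAP Tg, and 6 and 7 with decitabine against Control. Here fewer libraries enter the fit by construction. With a filter of at least 2, which tests fewer chains, the lower counts became 3 each for Tet1 KO YAP Tg over YAP Tg and the same over Control, and 7 with decitabine against Control. There 8472 and 5200 of 11929 genes, and 8419 of 12128 genes, were called. For Tet1 KO YAP Tg over Control 3 chains were lower with DESeq2 and 3 with library weights (4876 and 4536 of 13730 genes called). With decitabine against Tet1 KO YAP Tg 1 chain was higher with a pseudocount of 0.1 and 1 with library weights (8434 and 6805 of 13949 genes called). On the TPM scale 4 were higher with decitabine than in Tet1 KO YAP Tg and 4 lower than in Control, where the median of all genes also moved to 0.43 and 0.56. On that scale 9470 and 10283 of 14140 genes were called. The cause of these changes was not tested. Library weights, and the fits that keep Col4a2, Col4a4 and Col7a1, were chosen after seeing the data.

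Leaving out 1 library at a time gave 10 to 13 chains higher and 9 to 11 lower in YAP Tg against Control, 10 to 11 and 5 to 6 for Tet1 KO YAP Tg over YAP Tg, 8 to 13 and 3 to 4 for Tet1 KO YAP Tg over Control, 1 to 6 and 7 to 10 with decitabine against Tet1 KO YAP Tg, and 6 to 9 and 8 to 12 with decitabine against Control. In the same order, 8696 to 10292, 8201 to 8674, 4032 to 7488, 7439 to 9049 and 8404 to 9749 of all genes were called. Between 13423 and 13923 genes were tested in these fits. Whether the counts of collagen chains vary more than those of all genes was not tested.

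Replicate numbers did not pair the libraries: same-numbered libraries correlated above 0.1 in 6 of 18 pairs (range -0.29 to 0.18). With the replicate block the counts were 12 higher and 11 lower in YAP Tg against Control, 11 and 5 for Tet1 KO YAP Tg over YAP Tg, 12 and 4 for Tet1 KO YAP Tg over Control, 3 and 9 with decitabine against Tet1 KO YAP Tg, and 6 and 11 with decitabine against Control. In the same order, 9653, 9246 and 5253 of 13730 genes, and 8288 and 9256 of 13949 genes, were called.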
